A study of Homo sapiens with 31 samples.

Results

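The input transcriptomes of SBP-eIF4A1 cells and SBP-eIF4A2 cells are 4 of the 31 sequencing libraries of the study, 2 from each cell line, and were chosen by their group labels alone. Both lines are HEK293 T-REx, a human embryonic kidney line that carries a tetracycline repressor so that an introduced gene can be induced. The genotype label of the first group is SBP-eIF4A1 and that of the second is SBP-eIF4A2, where SBP is a streptavidin-binding peptide fused to the protein. An input library holds the mRNA of the lysate before the tagged protein is captured on streptavidin beads and eluted with biotin. A strand-specific mRNA kit was used, on cells grown in DMEM with serum. The titles and characteristics of these 4 libraries name no siRNA and no PP242, an mTOR inhibitor used elsewhere in the study, and they do not say whether the transgene was induced. Other libraries of the study came from naive cells, from EIF4A1 knockout cells and from SBP-eIF4A1 cells treated for 72 h with a control siRNA (siControl) or an siRNA against LARP1 (siLARP1), and they are used below only to place the values. The tagged protein and the line that carries it cannot be told apart. The labels do not say whether the siRNA-treated SBP-eIF4A1 cells were the same line or clone as the untransfected ones, and this bears on every comparison with them below.

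eIF4A is a DEAD-box RNA helicase of the eIF4F complex, which binds the mRNA cap, unwinds the leader and lets the small ribosomal subunit load. eIF4A1 and eIF4A2 are closely similar paralogs from separate genes, and both can take the helicase place in eIF4F. LARP1 binds the cap and the terminal oligopyrimidine stretch of mRNAs for ribosomal proteins and translation factors, and holds back their translation when mTORC1 is inhibited. In a pulldown of RNA with a tagged eIF4A, the input is the level against which the captured RNA is read, so a difference between the inputs of the lines enters any comparison of their raw pulldown values.

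The counts are of reads per Ensembl transcript, and they sum to between 49123005 and 64179407 in the 4 inputs because a read is counted in every transcript that holds it. Transcripts with equal counts in all 31 libraries were collapsed, which left 77343 distinct transcripts, and a further reduction to about 1 transcript per locus left 35499. The deposited files do not pair transcripts with genes, so transcripts are described by number, level and deposited length, EIF4A1 and EIF4A2 mRNA could not be looked up, and the genotypes rest on the labels. No marker of HEK293 or of another cell type could be checked for the same reason. Replicate inputs were close: relative to a value of 1 for sampling noise alone, the variation between replicates was 1.45 in the SBP-eIF4A1 inputs and 1.53 in the SBP-eIF4A2 inputs, against 7.12 in the siControl inputs and 14.8 in the siLARP1 inputs. The labels do not say that replicates were separate cultures, so the p-values below measure the spread between these libraries, which may be technical. The labels name no batch or date. The sample numbers of the SBP-eIF4A1 libraries, siRNA-treated ones included, fall in a separate range from those of the SBP-eIF4A2 libraries. The naive and EIF4A1 knockout RNA-seq libraries fall in the SBP-eIF4A2 range. The labels do not say whether the ranges differ in preparation or sequencing, and such a difference cannot be told apart from the line.

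The mRNA levels of the tagged lines differed at many transcripts, mostly by small amounts and about equally often in either direction. Of 63847 distinct transcripts tested, 26102 (40.9%) were called different at an adjusted p under 0.05 by edgeR's quasi-likelihood test. Of these, 13240 (20.7% of those tested) were higher in SBP-eIF4A2 inputs and 12862 (20.1%) were lower. The change was under 0.5 on the log2 scale for 16491 of the calls (63.2%), and the median absolute log2 change of the calls was 0.40. A log2 change over 1, a doubling, was reached by 1587 called transcripts higher in SBP-eIF4A2 inputs (2.49%) and by 1059 lower (1.66%). A log2 change over 2 was reached by 400 higher and 288 lower. With 1 transcript per locus, 9168 of 25280 (36.3%) were called, 4665 higher (18.5%) and 4503 lower (17.8%), of which 742 and 481 had a log2 change over 1. Transcripts of one locus share reads, so these calls are not independent of each other. The edgeR fit estimated a biological coefficient of variation of 2.52% between replicates. DESeq2's Wald test called 13289, and a fit that took in the siRNA-treated inputs called 6369. In bulk RNA, fewer cells of a kind and less RNA per cell cannot be told apart.

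The difference between lines exceeded the difference between replicates across the range of well-measured transcripts. Among the 7625 transcripts kept at 1 per locus whose mean log2 CPM (CPM being the count scaled to library size) was 3 or more, the median absolute difference was 0.059 between the SBP-eIF4A1 replicates and 0.052 between the SBP-eIF4A2 replicates. Between the group means it was 0.16. The 95th percentile of these differences was 0.19, 0.17 and 0.59. No transcript of this set differed by more than 1 between replicates of either line, and 69 did so between the lines.

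**Figure D1:**
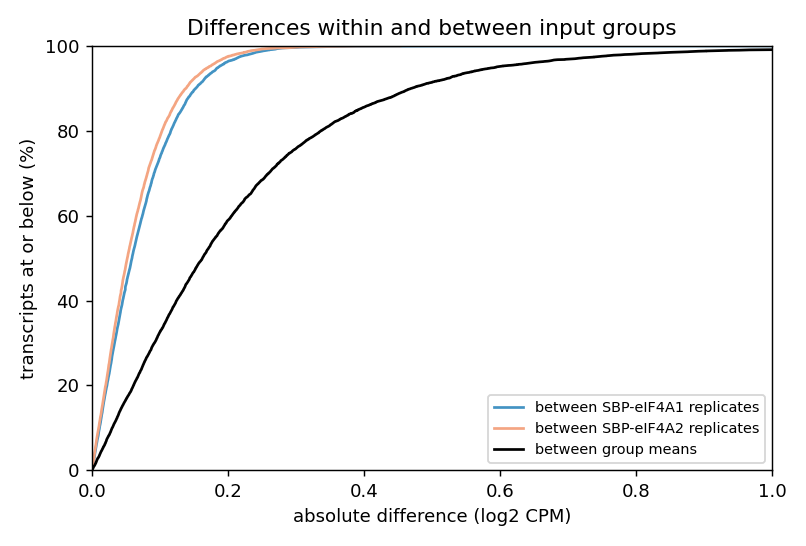
Cumulative share of the 7625 transcripts (y axis, percent) at or below an absolute difference in log2 CPM (x axis), for replicates 1 and 2 of each input group and for the 2 group means. The curves for replicates lie close together with medians of 0.059 and 0.052, and the curve between groups lies to the right with a median of 0.16.

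Calls followed the level of the transcript. In 5 classes of 5056 transcripts each, ordered by mean level, the share called was 19.3% in the lowest class, then 22.7%, 33.2% and 46.8%, and 59.3% in the highest. The median absolute log2 change went the other way, from 0.39 in the lowest class to 0.16 in the highest. The median difference between the SBP-eIF4A1 replicates went with it, from 0.33 to 0.052. The lowest class spanned mean levels of 0.157 to 0.70 CPM and the highest 13.6 to 7436 CPM. By deposited length, the share called went from 16% in the shortest class of 5056 to 52.8% in the longest. The median signed log2 change stayed between -0.014 and 0.016 over the 5 length classes.

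**Figure D2:**
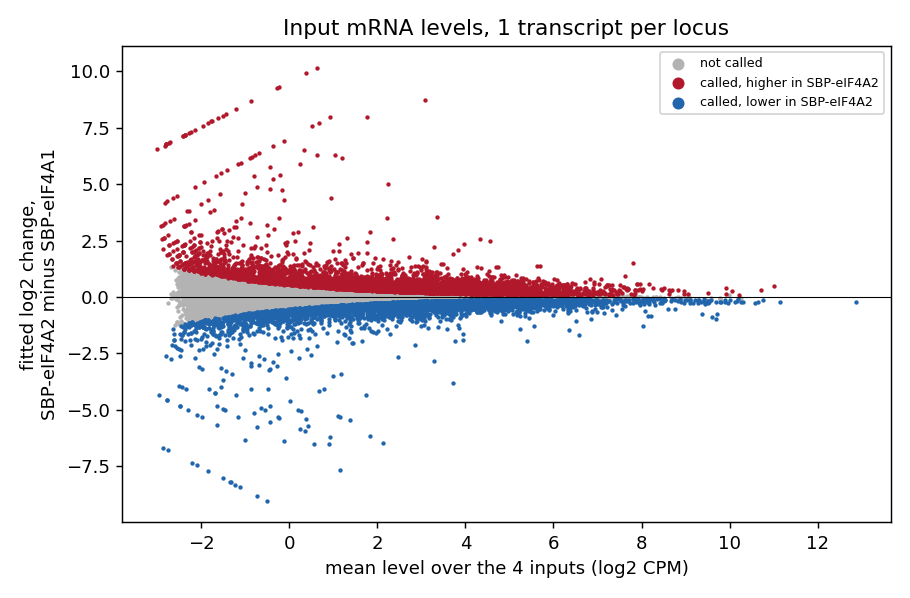
Fitted log2 change, SBP-eIF4A2 minus SBP-eIF4A1 inputs (y axis), against mean level in log2 CPM (x axis) for 25280 transcripts at 1 per locus, coloured by call. Called transcripts lie on both sides of 0 (4665 higher, 4503 lower), and the rows of points at the far left and upper left are transcripts with 0 or very few counts in 1 group.

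The transcripts with the largest changes at a mean of at least 5 CPM often lay in the same group of neighbouring transcripts. Several transcripts per locus are usual here, since the 63847 distinct transcripts tested reduce to 25280 at 1 per locus. The 12 with the largest increase in SBP-eIF4A2 inputs fell into 5 groups of neighbouring transcripts, with log2 changes from 2.45 to 8.73, and the 12 with the largest decrease fell into 6 groups, at -3.82 to -1.96. A pair in each direction is described in full, with the chosen transcripts lying in separate groups. None of the 4 could be tied to a gene.

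ENST00000262648.8, of deposited length 671, was nearly without reads in the SBP-eIF4A1 inputs, at 0.0504 and 0.0244 CPM (2 counts and 1 count). It stood at 16.7 and 17.1 CPM (854 and 897 counts) in the SBP-eIF4A2 inputs. The ratio was 455, with a 95% exact interval of 155 to 2208 that covers counting error only, and edgeR's adjusted p was 2.67e-90. The transcript was at 0.0282 and 0 CPM in the SBP-eIF4A1 pulldowns and at 8.66 and 6.97 CPM in the SBP-eIF4A2 pulldowns. It was present in naive cells, at 10.3 and 9.64 CPM, and in EIF4A1 knockout cells, at 11.1 and 11.8 CPM. It was also present in the other cultures labelled SBP-eIF4A1, at 13.7 and 13.8 CPM with the control siRNA and 21.6 and 15.3 CPM with the LARP1 siRNA. The near absence was thus seen in the 4 libraries of untransfected SBP-eIF4A1 cells and not in the 4 siRNA inputs that carry the same genotype label. With the siControl inputs in place of the SBP-eIF4A1 inputs, its log2 change was 0.25, with an adjusted p of 0.037 by edgeR.

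ENST00000371130.7, of deposited length 2716, was at 1.59 and 1.68 CPM in the SBP-eIF4A1 inputs and at 19.3 and 18.5 CPM in the SBP-eIF4A2 inputs. The log2 change was 3.53 (SE 0.10, n = 2 per group, edgeR adjusted p = 2.75e-79). Here the naive cells stood between the lines, at 6.88 and 7.38 CPM, and so did the siControl inputs, at 7.27 and 6.48 CPM. The EIF4A1 knockout cells were the lowest of the groups shown, at 0.253 and 0.157 CPM. The pulldowns kept the order of the inputs, at 1.69 and 1.68 CPM with SBP-eIF4A1 and at 29.4 and 31.8 CPM with SBP-eIF4A2. Against the siControl inputs the log2 change was 1.40, less than that against the untransfected inputs.

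ENST00000580888.5, a short entry of deposited length 41, was at 24.3 and 24.8 CPM in the SBP-eIF4A1 inputs and at 1.73 CPM in both SBP-eIF4A2 inputs. The log2 change was -3.82 (SE 0.090, n = 2 per group, edgeR adjusted p = 2.00e-91). Naive cells had 0.680 and 0.625 CPM and EIF4A1 knockout cells 2.14 and 2.10 CPM, both nearer to the SBP-eIF4A2 inputs. The siControl inputs had 12.2 and 11.8 CPM. The siLARP1 inputs did not match each other, at 12.4 and 0.431 CPM. In the SBP-eIF4A1 pulldowns this transcript was at 22.3 and 23.2 CPM. In the SBP-eIF4A2 pulldowns it was at 1.71 and 4.39 CPM, so those replicates differed from each other.

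ENST00000547702.5, of deposited length 618, was at 10.2 and 10.7 CPM in the SBP-eIF4A1 inputs and at 1.37 and 1.504 CPM in the SBP-eIF4A2 inputs. The log2 change was -2.85 (SE 0.11, n = 2 per group, edgeR adjusted p = 3.73e-58). The pulldowns had lower values but the same order, at 3.41 and 3.30 CPM with SBP-eIF4A1 and at 0.266 and 0.361 CPM with SBP-eIF4A2. Naive cells, at 2.09 and 2.08 CPM, were near the SBP-eIF4A2 inputs, and EIF4A1 knockout cells, at 3.96 and 4.92 CPM, were between the lines. The siControl inputs, at 8.27 and 9.62 CPM, were near the SBP-eIF4A1 inputs. As with the transcript before it, the siLARP1 inputs differed from each other, at 10.9 and 3.33 CPM.

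**Figure D3:**
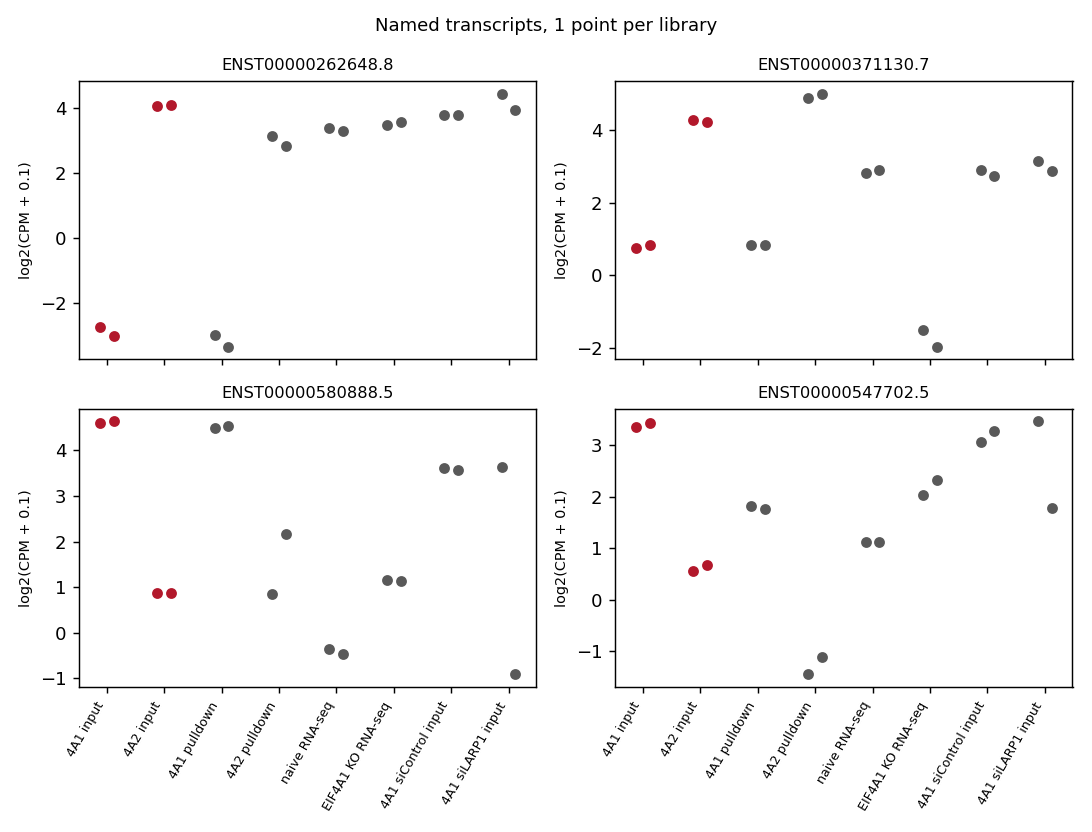
Level of the 4 described transcripts as log2(CPM + 0.1) (y axis) in each library of 8 groups (x axis), with 1 point per library and the input groups in red. The replicate inputs nearly coincide, and the siControl inputs, which carry the SBP-eIF4A1 label, lie apart from the untransfected SBP-eIF4A1 inputs for ENST00000262648.8 (13.7 and 13.8 CPM) and ENST00000371130.7 (7.27 and 6.48 CPM).

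In absolute terms the largest differences were among abundant transcripts and were modest as ratios. The largest gain was from 1715 ± 14.1 CPM in SBP-eIF4A1 inputs to 2377 ± 84.2 CPM in SBP-eIF4A2 inputs (SD, n = 2), a log2 change of 0.47 with an edgeR adjusted p of 5.48e-22. The largest loss was from 7974 ± 179 CPM to 6898 ± 257 CPM, a log2 change of -0.21 with an edgeR adjusted p of 1.06e-05. The 3 largest losses lay on neighbouring rows, so they may hold the same reads. Larger ratios were found further down: the transcript with the fourth largest loss went from 1090 ± 16.1 to 558 ± 13.7 CPM, a log2 change of -0.97 with an edgeR adjusted p of 5.35e-56. The transcript with the sixth largest gain went from 117 ± 0.616 to 333 ± 5.10 CPM, a log2 change of 1.52 with an edgeR adjusted p of 2.78e-83. The input groups did not overlap for any of these transcripts, as for 43742 (68.5%) of all those tested. Groups of 2 libraries often fail to overlap without any difference, so this share is a description.

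Some transcripts were near absent from 1 line and present in the other. At most 3 counts in both SBP-eIF4A1 inputs and at least 50 in both SBP-eIF4A2 inputs were found for 76 distinct transcripts in 26 groups of neighbours, with levels of 1.06 to 16.9 CPM (median 1.82) where they were present. The reverse held for 52 transcripts in 14 groups, at 1.26 to 4.46 CPM (median 2.32). These limits were set on the same inputs, so the 76 and 52 calls among them are no test. A limit of 3 counts corresponds to 0.0575 to 0.0751 CPM in these libraries. ENST00000262648.8 was the most abundant of the first set.

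Libraries that had no part in the choice placed these transcripts as follows, with 1 kept per locus. The 27 transcripts near absent from SBP-eIF4A1 inputs were also low in the SBP-eIF4A1 pulldowns, with a median of 0 CPM and a highest level of 0.138 CPM. They had a median of 1.69 CPM in the SBP-eIF4A2 pulldowns. All 27 were present in naive cells, at 0.936 to 9.97 CPM (median 2.53). All 27 also had more than 3 counts summed over the siControl inputs, at 0.0849 to 13.7 CPM (median 0.707), although those carry the SBP-eIF4A1 label. The 14 transcripts near absent from SBP-eIF4A2 inputs were low in the SBP-eIF4A2 pulldowns, with a highest level of 0.113 CPM, and at 0.506 to 7.32 CPM in the SBP-eIF4A1 pulldowns. They were low in naive cells too, with a median of 0.0401 CPM and a highest level of 0.139 CPM. In the siControl inputs their median was 0.671 CPM, with a range of 0.0165 to 2.90 CPM. Naive cells thus stood with the SBP-eIF4A2 inputs in both sets by their medians, and the siControl inputs had medians between those of the 2 lines.

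The same was asked of large changes at well-measured levels. Of the same 7625 transcripts, 4277 (56.1%) were called, and 48 were called with a log2 change over 1 toward SBP-eIF4A2 and 21 toward SBP-eIF4A1. The 48 had a median log2 CPM of 2.54 in the SBP-eIF4A1 inputs and 3.94 in the SBP-eIF4A2 inputs, as chosen. In naive cells their median was 3.91, and 44 of the 48 lay nearer to the SBP-eIF4A2 inputs than to the SBP-eIF4A1 inputs. In the siControl inputs the median was 3.72 and 37 of 48 lay nearer to the SBP-eIF4A2 inputs, and in the EIF4A1 knockout cells these values were 3.69 and 33 of 48. The 21 had medians of 4.49 in the SBP-eIF4A1 inputs and 2.85 in the SBP-eIF4A2 inputs. In naive cells their median was 2.60 and 20 of 21 lay nearer to the SBP-eIF4A2 inputs. In the siControl inputs it was 3.19 and 15 of 21 did so. In the siLARP1 inputs 41 of the 48 and 18 of the 21 lay nearer to the SBP-eIF4A2 inputs. This count is coarse, since a level beyond that of the SBP-eIF4A2 inputs also counts as nearer to them. By it, 30 of the 48 and 17 of the 21 lay nearer to the SBP-eIF4A2 inputs in the SBP-eIF4A2 pulldowns. In the SBP-eIF4A1 pulldowns 6 of the 48 and 9 of the 21 did so. For most of the large changes, then, the naive level lay nearer to the SBP-eIF4A2 inputs than to the untransfected SBP-eIF4A1 inputs. No test against naive cells was made, and the naive libraries share their range of sample numbers with the SBP-eIF4A2 inputs. The RNA-seq libraries of naive cells were not lysate inputs of a pulldown, and the part of that difference in preparation was not tested.

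**Figure D4:**
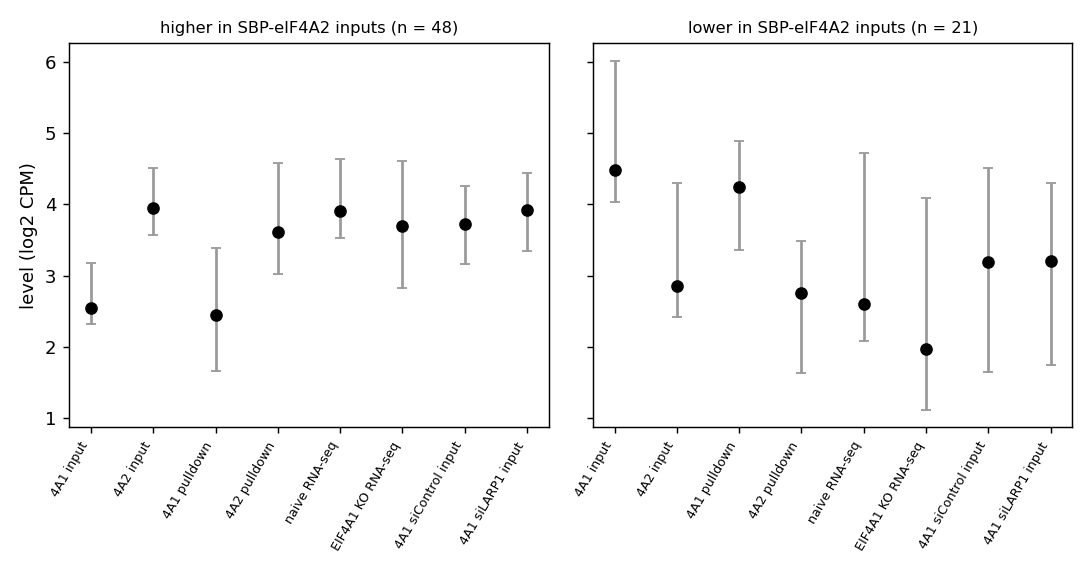
Median level in log2 CPM (points, y axis) with the lower and upper quartiles (bars) of the 48 transcripts higher and the 21 lower in SBP-eIF4A2 inputs, in 8 groups of libraries (x axis). The 2 input groups differ by the choice of transcripts; naive cells have medians of 3.91 and 2.60, near the SBP-eIF4A2 inputs at 3.94 and 2.85.

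The pulldown libraries of the same lines, which were not used in the choice, differed in the same direction at these transcripts. In an edgeR fit of SBP-eIF4A2 against SBP-eIF4A1 pulldowns, 16.9% of all transcripts tested were called higher and 18.7% lower. Among the 7625 well-measured transcripts, from which the 48 and the 21 come, 21.4% were called higher and 32.3% lower. Of the 48 transcripts, 47 were called higher there and all 48 had a change above 0, with a median log2 change of 1.10 against 1.27 in the inputs. Of the 21, 20 were called lower and all 21 had a change below 0, with medians of -1.52 and -1.38. Over the 7625 transcripts, the difference between inputs and the difference between pulldowns had a Pearson r of 0.58 and a Spearman rho of 0.47. The 2 comparisons share no library but come from the same cell lines, and transcripts are not independent replicates. A difference between the inputs enters the raw pulldown values, so the shared direction is not a separate test of it.

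Neighbouring transcripts in the deposited order changed together. There were 1406 pairs of consecutive distinct transcripts that were both called with a log2 change over 1, and in 1403 of them the direction was the same. Transcripts of one locus share reads, so such pairs are not independent. To look beyond a locus, the 7625 transcripts at about 1 per locus were divided into 153 windows of 50 in file order. The median log2 change of each window, relative to the median of all, was taken. The reduction to 1 per locus is approximate, so a window may still hold transcripts that share reads. The files give no coordinates, so a place in the file was not tied to a place in the genome.

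Most windows lay at 0: 131 of 153 had a median within 0.1 of it. The remaining range ran from -0.23 to 0.57, and 15 windows were more than 0.2 from 0, 14 of them higher in SBP-eIF4A2 inputs and 1 lower. The 15 were chosen by this limit in these libraries and are a description. Between replicates of a line no window passed 0.2, and the largest medians were 0.056 in SBP-eIF4A1 and 0.039 in SBP-eIF4A2 inputs. The 15 windows joined into 6 stretches of consecutive windows of 1 direction.

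**Figure D5:**
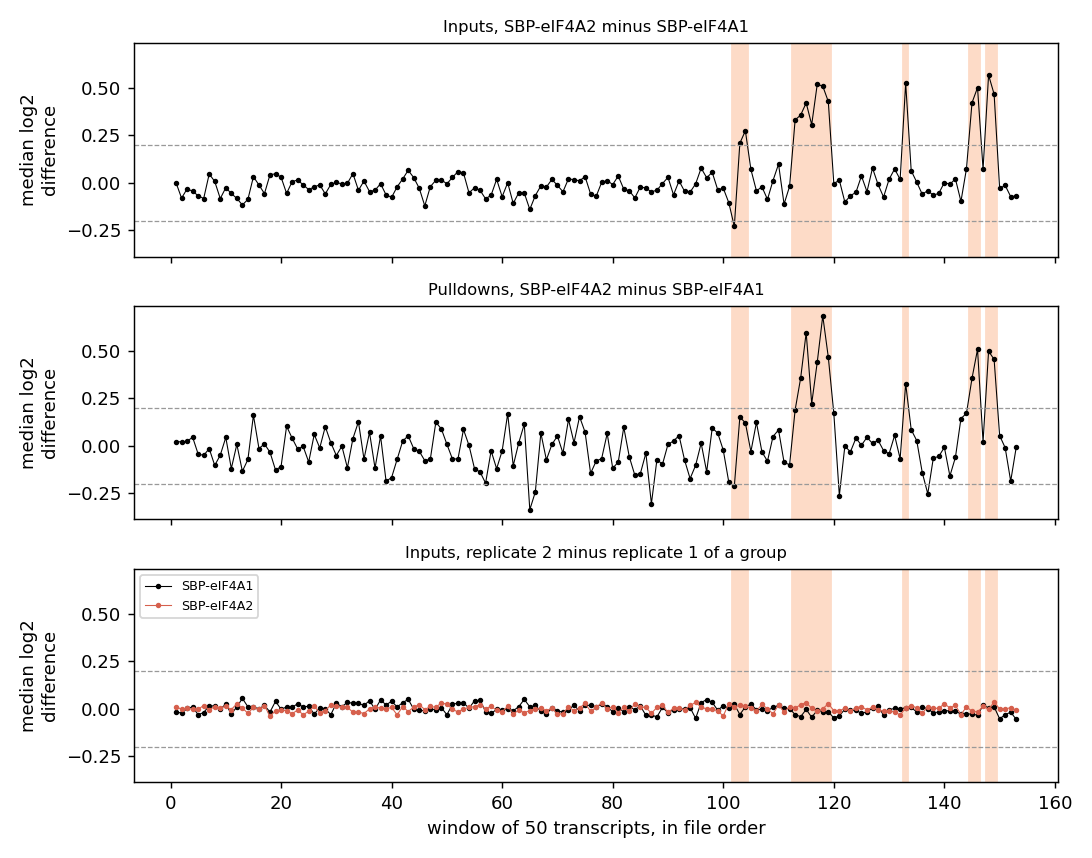
Median log2 difference of each window of 50 transcripts (y axis) against window number in file order (x axis), for inputs, for pulldowns and for replicate inputs, with the stretches shaded and lines at -0.2 and 0.2. Input windows run from -0.23 to 0.57 with 15 beyond the lines, pulldown windows rise at the same places, and no replicate window passes the lines.

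The longest stretch covered 7 windows (113 to 119, 350 transcripts), and its median log2 change was 0.41, a ratio of 1.32. In it 94% of transcripts were above 0, and 302 were called higher against 10 lower. Over the 4 pairings of an SBP-eIF4A2 with an SBP-eIF4A1 input the median of the stretch lay between 0.38 and 0.43. The quartiles were 0.26 and 0.57, so the stretch was shifted as a whole and not through a few transcripts. Window 133 (50 transcripts) had a median of 0.52, with 46 called higher and 1 lower. Windows 145 and 146 (100 transcripts) had a median of 0.49, with 89 higher and 3 lower. Windows 148 and 149 (100 transcripts) had a median of 0.53, with 79 higher and 6 lower. The ratios of these 3 were 1.44, 1.40 and 1.44. Windows 103 and 104 (100 transcripts) were shifted less, by 0.24, with 61 higher and 13 lower. The lower stretch was window 102 (50 transcripts), just before them in the file, at -0.23 with 1 called higher and 35 lower.

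The 5 higher stretches held 700 transcripts, of which 577 were called higher and 33 lower. Among all 7625 transcripts, 26.5% were called higher and 29.6% lower, and since the stretches were found in these libraries the excess is a description. The 700 were 9.18% of the transcripts in windows and held 28.6% of the 2019 higher calls. The share held by the 700 is given by size of change only as a description. By the choice itself, stretches with a median over 0.2 hold few smaller changes. They held 7.64% of the 484 higher calls with a log2 change up to 0.2, 26.4% of the 1101 between 0.2 and 0.5, and 60.9% of the 386 between 0.5 and 1. They held 14 of the 48 over 1 (29.2%), near their share of all higher calls (28.6%). None of the 4 transcripts described above lay in a stretch. Outside the stretches, 1441 of 3631 calls (39.7%) were higher, with a median log2 change of -0.020 over 6875 transcripts. Among all 7625 transcripts 47.2% of calls were higher. Taking out stretches that were mostly chosen as higher lowers this share by that choice, so it is a description. The balance of calls moved with the scaling and the transcripts fitted. Over all distinct transcripts, 50.7% of calls were higher with TMM scaling and 57.5% with library totals, and 49.7% of 21462 calls were higher in a TMM fit without the stretches. Deposited length and level did not set the stretches apart. Median lengths were 471 in all stretches together, the lower one included, and 482 outside, and median levels were 18.4 and 18.2 CPM.

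The pulldown libraries had shifts at the same places. Of 17 pulldown windows more than 0.2 from 0, 12 were among the 15 of the inputs with the same sign and 5 were not. The median of the longest stretch was 0.44 in the pulldowns. The others were 0.33 for window 133, 0.40 for windows 145 and 146, 0.46 for windows 148 and 149, 0.12 for windows 103 and 104, and -0.21 for window 102. Over the 153 windows, medians of inputs and pulldowns had a Pearson r of 0.81 and a Spearman rho of 0.50.

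The level of the stretches in naive cells differed from stretch to stretch. In the longest stretch the naive cells exceeded the SBP-eIF4A1 inputs by 0.32 and differed from the SBP-eIF4A2 inputs by -0.084. In window 133 these values were 0.46 and -0.045. In windows 148 and 149 they were 0.57 and 0.11, and in windows 103 and 104 they were 0.40 and 0.18, so the naive level was above both lines there. Windows 145 and 146 were unlike each other: window 145 was at 0.51 and 0.065, near the SBP-eIF4A2 level, and window 146 at 0.070 and -0.48, near the SBP-eIF4A1 level. The lower window 102 was at -0.33 and -0.097, below both. Both differences share the naive libraries and share an input group with the main comparison, so they are given only side by side.

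The siControl inputs gave a different picture for some stretches, as they did for single transcripts. With them in place of the untransfected SBP-eIF4A1 inputs, the longest stretch was at 0.36 and windows 148 and 149 at 0.50. Window 133 was at 0.095 and windows 145 and 146 at 0.053, so neither passed 0.2 in that comparison. Window 102 changed sign, to 0.23, and windows 103 and 104 were at 0.16. That comparison had 37 windows past 0.2 in all. The siControl cells had been through a transfection, and their replicates differed from each other more (7.12 times sampling noise against 1.45). The part of transfection, culture and replicate spread in these values was not tested. The direction of the large changes and of the 6 stretches between the untransfected inputs was the same in the pulldowns of the same lines. Input differences enter those pulldown values, so this is a description and not a separate test. In the siControl and siLARP1 inputs, which carry the SBP-eIF4A1 label, most of the large changes lay nearer to the SBP-eIF4A2 inputs. That count is coarse, as it takes in levels beyond those of the SBP-eIF4A2 inputs. With the siControl inputs, only the longest stretch and windows 148 and 149 still passed 0.2 in the same direction.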

How the data were processed

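mRNA levels were taken from the authors' deposited raw counts per versioned Ensembl transcript, 1 file per library without a header, and a deposited length per transcript of unstated unit (another measure the authors list) was used only to rank. Per the submitters' processing notes, CASAVA 1.8 and STAR 2.7.0a were used with build hg38; counting tool and annotation are not given in the sources used here. Of 227264 transcripts, 126981 had no length and 0 counts throughout, and 313 lengths were below 0. Distinct count vectors entered edgeR 4.0.16 (R 4.3.3; TMM scaling, filterByExpr minimum count 10 and minimum total 15, quasi-likelihood test, two-sided, Benjamini-Hochberg over all tested, called under 0.05). One transcript per locus was kept by a correlation of log2 CPM of at least 0.9 within 10 distinct rows (pseudocount 0.5), which is approximate. Totals were 13488265 to 17642738 counts per input at 1 per locus. Levels in other groups used TMM factors over 16 libraries. Antisense partners rest on the stranded kit, and transcripts of near-identical copies are uncertain. The procedures were tested on simulated data.

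The rule for named transcripts took the largest log2 changes among called transcripts with at least 5 CPM and groups that do not overlap, at most 2 per direction. The second of each direction is the next one more than 10 distinct rows from the first, a choice made after the values were seen. Transcripts with the largest CPM differences are described without names. Members and lists were chosen with earlier results of these data known. Windows, stretches, the limits for near absence and the set of large changes were chosen after seeing the data. The fixed gene lists, marker lists and the check of EIF4A1, EIF4A2 and EIF4A3 were not run, since no table used here pairs these transcripts with genes (the gene tables, assembly GRCh38.p14, list gene IDs), and no sequence is printed. The alternatives were other scalings, filters and tests, other libraries in the fit, each library left out, a replicate block, and other windows. Of 16 libraries placed beside each other, the ribosome profiling and siLARP1 pulldown libraries were not part.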

Additional observations from a re-analysis of the deposited data

How the results depend on the processing

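The 26102 calls became 13289 with DESeq2's Wald test (1.42.0), 15478 in a fit of 8 input and pulldown libraries, 6369 in a fit of 8 inputs that includes the siRNA inputs (62.3% of calls higher, against 50.7%), 2365 when edgeR's glmTreat asked for a change beyond 1.5-fold (61.5% higher) and 8953 with 1 transcript per locus in the fit, an alternative chosen after seeing the data. Calls higher and lower were 13240 and 12862, against 7141 and 6148 with DESeq2, 8175 and 7303 with pulldowns in the fit, 3970 and 2399 with siRNA inputs, 1455 and 910 with glmTreat, and 4593 and 4360 at 1 per locus. Calls over a log2 change of 1 were 1587 and 1059, against 368 and 206 with at least 50 counts in every library, 737 and 468 at 1 per locus, 673 lower with glmTreat, and 6648 and 2442 with the siControl inputs in place of the SBP-eIF4A1 inputs, which called 32234 in all. Leaving out each library in turn gave 20553 to 21241 calls; the lone library left in its group was then assumed to vary like the other group. DESeq2 size factors gave 26086 calls, library totals 25816 (57.5% higher), no filter 23874, and leaving out the stretches 21462 (49.7% higher), an alternative chosen after seeing the data.

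The 15 windows past 0.2 became 37 with the siControl inputs, 14 to 15 without a library, and, by choices made after seeing the data, 31 with 25 transcripts per window, 8 with 100, and 31 with a minimum log2 CPM of 1. Only window 102 reversed, to 0.23 with the siControl inputs. The 4 named transcripts kept their direction and call in every setting that could test them, with log2 changes against the siControl inputs of 0.25, 1.40, -2.85 and -2.68. The cause of these moves was not tested. With the replicate number as a replicate block 26607 transcripts were called, including all 26102; same-numbered libraries did not deviate together (correlation 0.016 over 7625 transcripts, 2 pairs), so the numbers do not pair the libraries. The longest row per gene was not run, since genes were not paired with transcripts, and all distinct rows are the reported fit. Depth limits the lowest of the 5 level classes, where replicates differed by a median of 0.33 on the log2 scale.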
